A study of Mus musculus with 36 samples.

Results

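Resting neurons that lack Actl6b were set against wild-type neurons depolarised with KCl, to measure how far the resting knockout state lies from the stimulated state. All cells were primary mouse cortical neurons, taken from embryos at E16.5 and grown for 7 days in vitro. The knockout arm (KO) held the 7 RNA-seq libraries titled as KO, from ACTL6B -/- embryos, after 2 h in TTX and APV. The stimulated arm (1 h KCl) held the 5 wild-type (WT) libraries titled as 1h-KCl, which also had 2 h of TTX and APV, with 1 h of KCl. These 12 libraries were chosen by their titles, out of 36 samples in the series, 24 of them RNA-seq. The 5 WT libraries at rest, with 2 h of TTX and APV and no KCl, were used as the point of reference, and WT libraries with 7 h of the blockers (4) or 6 h of KCl within them (3) served to define late-responding transcripts. The arms differ in genotype and in KCl at once, and no KO culture received KCl. Age, culture time and the 2 h of blockers were common to both arms. The labels do not say how the deletion was made, what the 2-part culture codes (such as 3-4) mark, or whether a culture was pooled from several embryos.

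ACTL6B, also called BAF53b, is the actin-related subunit that neurons build into the BAF chromatin remodelling complex once they leave the cell cycle, in place of ACTL6A. TTX blocks voltage-gated sodium channels and APV blocks NMDA receptors, which silences firing and synaptic drive in a culture. Raised extracellular KCl depolarises the neurons and lets calcium in through voltage-gated channels. Calcium signalling then induces immediate early genes within minutes, many of them transcription factors of the AP-1, EGR and NR4A families, and later a wave of genes for synaptic and secreted proteins.

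The files list 115270 transcripts by Ensembl identifier without gene symbols, and 0 identifiers matched the gene tables used here. Results are therefore given for groups of transcripts, and 4 transcripts are named by identifier. The gene lists, the targeted gene and the markers of neurons and glia were not analysed here, so neither the genotype nor the cell type of a library was checked against its genes. In bulk samples, fewer cells of a type and less RNA per cell cannot be told apart. KO libraries held 6135380 to 7480901 estimated counts and 1 h KCl libraries 6902985 to 8015063. WT libraries at rest held 5873349 to 7578714. An estimated count shares reads among the isoforms of a gene, so a difference in a transcript can be a difference in that assignment.

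Of 33150 transcripts tested between KO at rest and WT after 1 h of KCl, 2558 (7.72%) were higher and 2388 (7.20%) lower in KO, 4946 in all (14.9%), at an adjusted p under 0.05 in edgeR's quasi-likelihood test. At least 2-fold differences were found in 1238 transcripts higher in KO (3.73%) and 772 lower (2.33%), and 8-fold differences in 88 and 85. Transcripts higher in KO had a median log2 fold change, KO minus KCl, of 0.97, those lower in KO one of -0.71, and all tested transcripts one of 0.01. The KO and KCl libraries did not overlap in log2 CPM, the count scaled to the library total after TMM adjustment, in 3581 transcripts (10.8%), with KO above in 1593 (4.81%) and below in 1988 (6.00%). The reference comparisons, fitted the same way, called fewer. For 1 h of KCl against rest 1438 of 31673 transcripts passed (4.54%), 806 higher and 632 lower after KCl, and 436 and 220 did in a fit blocked by culture code, the replicate block. For KO against WT at rest 966 of 32904 passed (2.94%), and leaving out 1 library gave 215 to 468 higher and 218 to 556 lower in KO. Each of them shares libraries with the main comparison, and the log2 difference between KO and KCl is that of KO from rest less that of KCl from rest. Among libraries whose code starts with 3 (3 KO, 2 KCl) 8 transcripts were higher and 24 lower, and among those starting with 4 (2 KO, 3 KCl) 36 and 176. With both kinds together, which leaves out only KO libraries 1-1 and 2-3, 2184 were higher and 2375 lower.

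The 2 transcripts named for the smallest p among those lower in KO were ones that KCl induces. Their KO levels lay nearer to WT at rest than to KCl, with means above those at rest. ENSMUST00000165033.1, 3036 bases long, had the smallest p of all tested. It stood at 529, 488, 546, 629 and 595 CPM in the 5 KCl libraries and at 16.3 to 24.7 CPM (median 23.1) in the 7 KO libraries. WT libraries at rest held 8.02, 4.73, 16.8, 18.9 and 13.2 CPM. The KO and KCl libraries were far apart, while 2 of the 7 KO libraries lay below the highest resting WT library. The level was 25.4-fold higher after KCl than in KO (log2 fold change of KO minus KCl -4.67 with an SE of 0.110, edgeR adjusted p = 3.32e-10). KO differed from WT at rest by a log2 fold change of 0.81 that did not pass the test (SE 0.286 and an edgeR adjusted p of 0.181). In KO libraries the mean was 21.9 ± 3.20 CPM (SD, n = 7) against 557 ± 55.4 CPM after KCl (SD, n = 5).

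ENSMUST00000056129.7, 3277 bases long, followed the same order. Its KCl libraries held 155, 138, 160, 205 and 175 CPM and its KO libraries 2.63 to 5.87 CPM (median 4.12), with no overlap, as the choice required. At rest, WT libraries held 1.31, 2.87, 2.59, 1.77 and 1.75 CPM, so that 1 KO library lay within the WT range and 6 above it. The log2 fold change was -5.32 (SE 0.172, edgeR adjusted p = 8.23e-09), a 39.9-fold higher level after KCl, and KO against WT at rest gave 0.99 (SE 0.270, edgeR adjusted p = 0.0771).

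The 2 transcripts named for the smallest p among those higher in KO were ones that KCl lowers within 1 h. ENSMUST00000203043.1, 15841 bases long, stood at 33.5 to 42.0 CPM in KO (median 34.8) and at 34.3, 37.4, 31.0, 35.6 and 36.5 CPM in WT at rest. After 1 h of KCl it stood at 4.01, 5.62, 4.68, 6.94 and 7.32 CPM, below every unstimulated library. KO was 6.32-fold above KCl (2.66 on the log2 scale with an SE of 0.159, edgeR adjusted p = 1.14e-06) and differed from WT at rest by 0.03 (SE 0.0869, edgeR adjusted p = 0.934). ENSMUST00000161460.7, 3777 bases long, stood at 32.3 to 41.2 CPM in KO (median 39.5), at 36.9, 30, 34.5, 43.3 and 38.6 CPM in WT at rest and at 7.22, 8.09, 7.74, 8.79 and 11.6 CPM after KCl. Its log2 fold change between KO and KCl was 2.14 (SE 0.133, edgeR adjusted p = 1.56e-06). In both transcripts the KO and resting WT libraries overlapped. For the 4 named transcripts the direction and the call held in each of 24 other settings. The adjusted p, from edgeR or where used DESeq2, was at most 0.0499. That largest value came from edgeR on the libraries with codes starting with 3 alone.

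**Figure D1:**
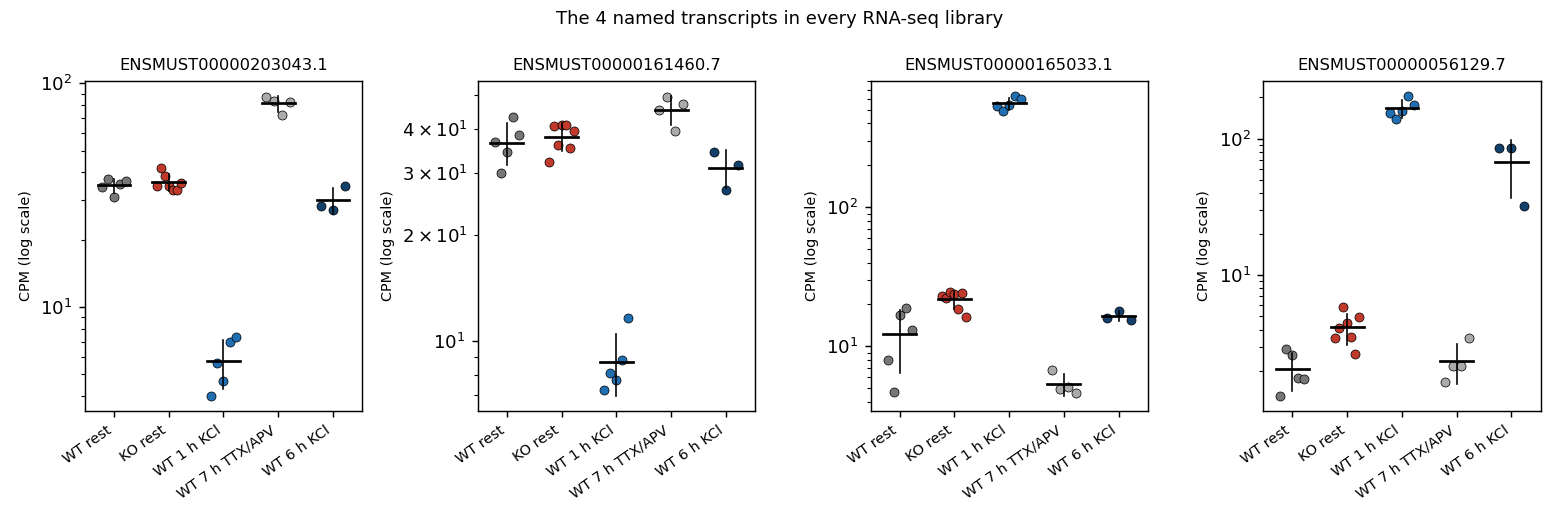
Level of the 4 named transcripts in every RNA-seq library, in CPM on a log axis. Points are libraries, horizontal lines the group means and vertical lines 1 SD. The KO libraries lie nearer to WT at rest than to WT after 1 h of KCl in all 4 panels. The transcripts were chosen for a gap without overlap between KO and 1 h KCl.

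A transcript of 1592 bases was low in KO and overlapped between the 1 h and resting WT groups. It was singled out after its values were seen, as the one with the smallest p for KO against WT at rest, so its low KO level is a description. It stood at 5.25 to 8.97 CPM in KO (median 6.58), at 59.5, 58.1, 59.5, 51.6 and 54.2 CPM after 1 h of KCl and at 59.7, 69.6, 64.7, 53.6 and 55.9 CPM in WT at rest. The later WT libraries were lower, at 18.4, 17.9, 18.2 and 20.7 CPM with 7 h of blockers alone and at 18.5, 20 and 18.8 CPM with 6 h of KCl. The 1 h and resting WT groups overlapped, and 1 h of KCl gave a log2 fold change of -0.12 against rest (SE 0.0851, edgeR adjusted p = 0.588).

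Early-induced transcripts were defined as those at least 2-fold higher after 1 h of KCl than at rest, with an adjusted p under 0.05. They numbered 505 (1.59% of those tested), and 501 were tested between KO and KCl. The list was chosen on the KCl libraries that enter the comparison, so a lower level in KO was largely built in, and the counts describe its size. Of the 501, 420 (83.8%) were called lower in KO and 0 higher (edgeR), where 7.20% of all tested transcripts were lower. Their median log2 fold change was -1.63, with quartiles of -2.40 and -1.17, beside 1.77 for KCl against rest and 0.17 for KO against rest. In 253 of them the 95% interval of the difference lay wholly below -1, so that a gap of less than 2-fold was outside the interval; this held for 331 of all tested transcripts (0.998%). In 14 (2.79%) the interval lay within 2-fold, as it did in 47.6% of all tested transcripts.

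Summed over the 501 early-induced transcripts, the level per length, in TPM, was 2027 to 3096 TPM in KO libraries (median 2439) and 11170, 9928, 10290, 11290 and 10330 TPM after KCl. WT libraries at rest held 1968, 2338, 2156, 2525 and 2301 TPM. The level score, the mean log2 CPM of a list less that of all tested transcripts, was -1.15 ± 0.110 in KO (SD, n = 7), 0.68 ± 0.0400 after KCl (SD, n = 5) and -1.36 ± 0.0844 in WT at rest (SD, n = 5). All 7 KO libraries lay below every KCl library, and 6 of the 7 lay above every resting WT library. The resting libraries helped to choose the list for being low there, so the second difference is not independent of that choice. The score differed by -1.80 between KO and KCl among codes starting with 3 and by -1.77 among those starting with 4.

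The early-induced transcripts were then divided by their own response at 6 h, measured in libraries outside the comparison. Of 167 that were also higher after 6 h of KCl, 152 were called lower in KO than at 1 h of KCl, with a median log2 fold change of -1.58. Of 254 tested at 6 h and not called there, 204 were lower in KO, with a median of -1.42. Another 80 had counts too low to be tested at 6 h, and 64 of them were lower in KO, with a median of -2.74. The median KO minus rest was 0.21, 0.12 and 1.12 in the same order. The last group is the least abundant, with a median of 0.28 log2 CPM against 3.00 and 2.08. Of the 103 that KCl induced at least 8-fold at 1 h, 92 were lower in KO, with a median of -3.29 beside 4.01 for KCl against rest and 1.06 for KO against rest. These 103 had a median of 0.57 log2 CPM. Of all tested transcripts, 7.20% were lower in KO, and the early list was chosen on the KCl libraries. It was chosen on the resting WT libraries as well, for being low there, which favours a positive KO minus rest. No raised level in KO is therefore read from these medians.

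Early-repressed transcripts, the 450 that were at least 2-fold lower after 1 h of KCl (1.42% of those tested), gave the mirror image. Of 431 tested between KO and KCl, 384 (89.1%) were called higher in KO and 0 lower (edgeR), where 7.72% of all tested transcripts were higher. This direction too was largely set by the choice of the list. Their median log2 fold change was 1.51, beside -1.54 for KCl against rest and -0.04 for KO against rest, and in 184 the 95% interval lay wholly above 1, as it did in 409 of all tested transcripts (1.23%). The level score was -0.37 ± 0.104 in KO (SD, n = 7), -1.85 ± 0.0978 after KCl (SD, n = 5) and -0.26 ± 0.0567 in WT at rest (SD, n = 5). KO library 1-1 was the lowest of its group at -0.60, and the other 6 lay between -0.36 and -0.30. Without library 1-1 the difference between KO and KCl was 1.53 in place of 1.49.

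**Figure D2:**
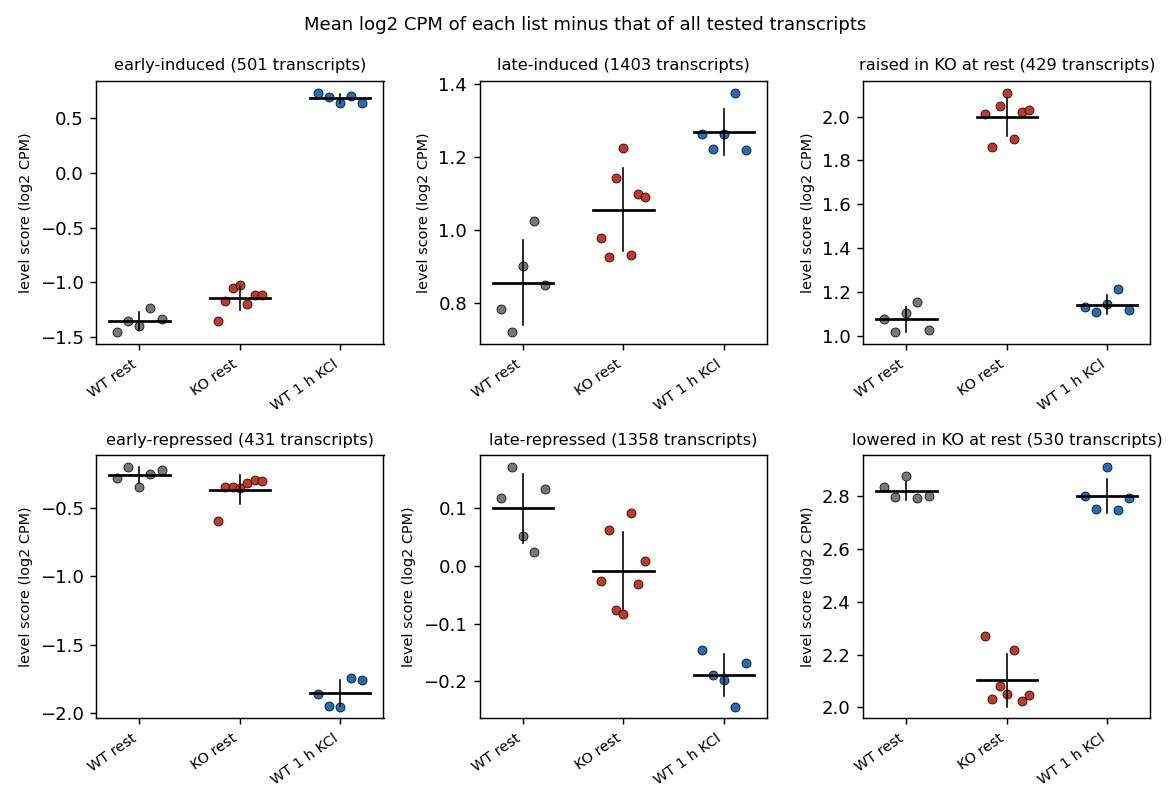
Level score of 6 lists of transcripts in each library: the mean log2 CPM of the list minus that of all tested transcripts, with points for libraries, horizontal lines for group means and vertical lines for 1 SD. The KO mean lies between the WT means for the early and the late lists, and outside both for the lists defined on KO. For the early lists it lies much nearer to WT at rest than to KCl. The early lists, and the parts of the late lists already changed at 1 h, were chosen on the 1 h KCl libraries.

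Late-responding transcripts came from other libraries, those with 6 h of KCl against those with 7 h of TTX and APV alone. Late-induced ones, at least 2-fold higher, numbered 1607 (4.84% of those tested) and late-repressed ones 1593 (4.80%). With no fold limit, 2808 transcripts were higher and 2283 lower after 6 h of KCl (edgeR), and with the replicate block 610 and 202 were. Their WT culture codes are among those of the 1 h libraries. Of 1403 late-induced transcripts tested between KO and 1 h of KCl, 239 (17%) were called lower and 122 (8.70%) higher in KO, against 7.20% and 7.72% of all tested transcripts. The median log2 fold change was -0.04, beside 0.01 over all tested. KCl against rest gave a median of 0.19 and KO against rest 0.17 in the same transcripts. The 95% interval lay within 2-fold in 799 of them (56.9%), and in 15776 of all tested transcripts (47.6%). The list was more abundant, with a median of 3.93 log2 CPM against 2.49 over all tested, and these shares were not matched for level.

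The late-induced list held a part that 1 h of KCl had already raised. In these 211 transcripts, 162 were lower in KO and 0 higher (edgeR), with a median of -1.18, and the 1 h libraries helped to choose them. In the 1189 that 1 h of KCl had not changed at the threshold, 77 (6.48%) were lower and 120 (10.1%) higher in KO, near the 7.20% and 7.72% of all tested transcripts, with a median of 0.04. Their medians against rest were 0.12 for 1 h of KCl and 0.17 for KO. In 734 of the 1189 (61.7%) the 95% interval of KO against KCl lay within 2-fold, against 47.6% of all tested transcripts. These 1189 were more abundant, with a median of 3.93 log2 CPM against 2.49 over all tested. The shares were not matched for level, so no closeness is read from them.

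By level score the late-induced list stood at 1.06 ± 0.113 in KO (SD, n = 7), 1.27 ± 0.0633 after KCl (SD, n = 5) and 0.86 ± 0.117 in WT at rest (SD, n = 5). Of the KO libraries, 6 lay below every KCl library and 4 above every resting WT library. The score, a mean over transcripts, differed by -0.21 between KO and KCl, where the median fold change was -0.04. The difference was -0.14 among codes starting with 3 and -0.19 among those starting with 4. The score includes the 211 transcripts already raised at 1 h, with a median of -1.18, which the 1 h libraries helped to choose. In the 1189 not called at 1 h, the median KO minus KCl was 0.04. Against rest, their medians were 0.17 for KO and 0.12 for KCl. No score was computed without the 211, so a KO score between the WT groups is not independent of the 1 h libraries. Per length, the list summed to 28920 to 40210 TPM in KO (median 31950), 36950 to 43910 TPM after KCl (median 39930) and 29580 to 34840 TPM in WT at rest (median 31130), so the KO libraries overlapped both WT groups.

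Of 1358 late-repressed transcripts tested, 219 (16.1%) were called higher and 100 (7.36%) lower in KO than after 1 h of KCl (edgeR), against 7.72% and 7.20% of all tested. The median log2 fold change was 0.11, and it was 0.02 where the list was defined with the culture code as a block. The score was -0.01 ± 0.0661 in KO (SD, n = 7), -0.19 ± 0.0365 after KCl (SD, n = 5) and 0.10 ± 0.0602 in WT at rest (SD, n = 5). All 7 KO libraries lay above every KCl library and 5 below every resting WT library. The summed TPM gave another order, with KO at 9262 to 11190 TPM (median 9931), KCl at 10220 to 11380 (median 10640) and WT at rest at 10800 to 12340 (median 11030). In the 1240 that 1 h of KCl had not changed at the threshold, 123 (9.92%) were higher and 97 (7.82%) lower in KO, against the same 7.72% and 7.20%, with a median of 0.05. The score also takes in 114 that 1 h of KCl had lowered, with a median of 1.38. The 1 h libraries helped to choose those.

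Most transcripts that set KO apart from WT at rest were also called in the same direction against stimulated WT. They were chosen on the KO libraries, 429 higher (1.30% of those tested) and 537 lower in KO (1.63%), so the direction was largely set by the choice. Of the 429 raised in KO, 345 (80.4%) were called higher and 6 lower in KO than after 1 h of KCl (edgeR) and 78 were not called, where 7.72% of all tested transcripts were higher and 7.20% lower. The median log2 fold change was 0.73. The same transcripts had a median of 0.78 for KO against rest and 0.03 for KCl against rest. Of 530 lowered in KO that were tested, 467 (88.1%) were lower, 3 higher and 60 not called, with a median of -0.62, beside -0.59 for KO against rest and 0.03 for KCl against rest.

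The level scores of these KO lists differed less between the WT groups than between KO and either of them. For the raised list the score was 2.00 ± 0.0866 in KO (SD, n = 7), 1.15 ± 0.0413 after KCl (SD, n = 5) and 1.08 ± 0.0577 in WT at rest (SD, n = 5). For the lowered list it was 2.10 ± 0.100 in KO (SD, n = 7), 2.80 ± 0.0649 after KCl (SD, n = 5) and 2.82 ± 0.0348 in WT at rest (SD, n = 5). Per length, the raised list summed to 14580 to 17930 TPM in KO (median 15810) and to 11480 to 12770 TPM after KCl (median 12230). In WT at rest the raised list summed to 10580 to 11560 TPM (median 11140), so the WT ranges overlapped with KCl the higher by median. The lowered list summed to 15430 to 20870 TPM in KO (median 18670) and to 28410 to 33220 TPM after KCl (median 30670). In WT at rest it summed to 27210 to 30240 TPM (median 29300), which overlaps the KCl libraries and not the KO ones.

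A small group was called in both reference comparisons. Of 16 transcripts above rest in KO as well as after 1 h of KCl, 6 were lower in KO than after KCl, 0 were higher and 10 were not called (edgeR). Their medians against rest were 0.65 in KO and 1.07 after KCl, and the median between the arms was -0.35. In 11 of the 16 the 95% interval of KO against KCl lay within 2-fold, as it did in 47.6% of all tested transcripts. Of 9 tested transcripts lower in both, 3 were higher and 1 lower in KO than after KCl, with a median of 0.38. The reference comparisons share the resting WT libraries, so the size of these groups is not a result. Among 112 transcripts raised in resting KO that 6 h of KCl also raised, 85 were higher in KO than after 1 h of KCl and 2 lower, with medians of 0.72 for KO against rest, 0.06 for 1 h of KCl against rest and 1.25 at 6 h. Of 92 lowered in resting KO that 6 h of KCl also lowered, 78 were lower in KO than after 1 h of KCl and 3 higher, with a median of 0.00 for 1 h of KCl against rest. These groups were chosen on the KO libraries as well. Of all tested transcripts, 7.72% were higher and 7.20% lower in KO than after 1 h of KCl.

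Each called transcript was then assigned to the reference comparison that also called it in the matching direction. Of the 4946, 1147 (23.2%) were called for 1 h of KCl against rest only, 802 (16.2%) for KO against rest only and 10 (0.202%) for both. The other 2987 (60.4%) were called in neither, and 2649 of these were tested in both. Of the 2987, 1696 were higher in KO, with a median log2 fold change of 0.91 beside 0.35 for KO against rest and -0.39 for KCl against rest. The 1291 lower in KO had a median of -0.59, beside -0.31 and 0.22. The arms lay on either side of rest in these medians. The transcripts were selected for a large gap between the arms, which favours medians that point apart. With the 3 groups in one fit the share called in neither was 53.0%.

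**Figure D3:**
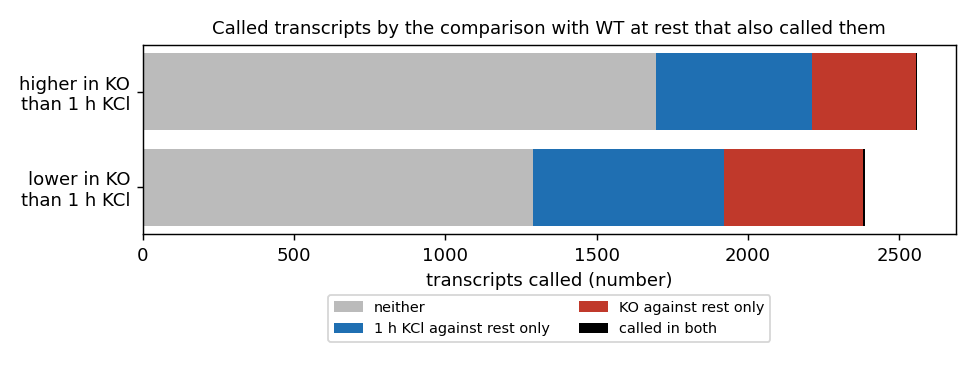
Number of transcripts called in KO at rest against WT after 1 h of KCl, by direction and by the reference comparison that also called them. Of 2558 higher and 2388 lower transcripts, 1696 and 1291 were called in neither reference comparison.

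The position of WT at rest, which takes no part in the main comparison, was then counted. Over all 33150 tested transcripts its mean log2 CPM was between those of KO and KCl in 14959 (45.1%), beyond KCl in 8663 (26.1%) and beyond KO in 9528 (28.7%). Among the called transcripts it was between them in 3612 (73.0%), beyond KCl in 486 (9.83%) and beyond KO in 848 (17.1%). Calling selects transcripts with a wide gap between the arms, which favours a mean of any other group falling inside it, so nothing is read from the share among the called. Of the called transcripts with rest between, 1752 had rest nearer to KO and 1860 nearer to KCl, beside 7431 and 7528 of all tested transcripts. Among the called transcripts lower in KO, 734 had rest nearer to KO and 1053 nearer to KCl, and among those higher in KO 1018 and 807. These splits come from the same selected set, so nothing is read from them either.

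Over whole libraries, KO lay farther from stimulated WT than resting WT did. The distance between 2 libraries was taken as the root mean square difference of log2 CPM over 36499 transcripts with a mean of at least 1 CPM. Its median was 1.38 for KO to KCl (35 pairs, 1.34 to 1.62), 1.32 for WT rest to KCl (25 pairs, 1.25 to 1.46) and 1.29 for KO to WT rest (35 pairs, 1.24 to 1.47). Within groups it was 1.21 among KCl, 1.23 among resting WT and 1.27 among KO libraries. Every pair of KO and KCl libraries was farther apart than any pair within the KCl group (1.18 to 1.22) or within resting WT (1.20 to 1.32), and their range overlapped that of pairs within KO (1.21 to 1.45). KO library 4-8 stood apart, with a mean distance to the KCl libraries of 1.56 where the other 6 lay at 1.35 to 1.395, and WT rest library 3-4 likewise with 1.41 beside 1.29 to 1.32. These 2 libraries had the lowest totals of their groups, at 6135380 and 5873349 estimated counts, and the part of depth was not tested. Without library 4-8 the median for KO to KCl was 1.38, and without library 3-4 that for WT rest to KCl was 1.31. Over transcripts of at least 10 CPM the medians were 0.962 for KO to KCl, 0.872 for WT rest to KCl and 0.891 for KO to WT rest. On the first principal component of the 17 libraries, with 14.9% of the variance, KCl libraries lay at 72.9 to 113, resting WT at -52.9 to 9.12 and KO at -127 to -20.1. Of the WT rest to KCl pairs, 5 had the same culture code (median 1.29) and 20 did not (median 1.32). No pair of KO and KCl libraries had a code in common. Pairs share libraries, so no test is given.

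**Figure D4:**
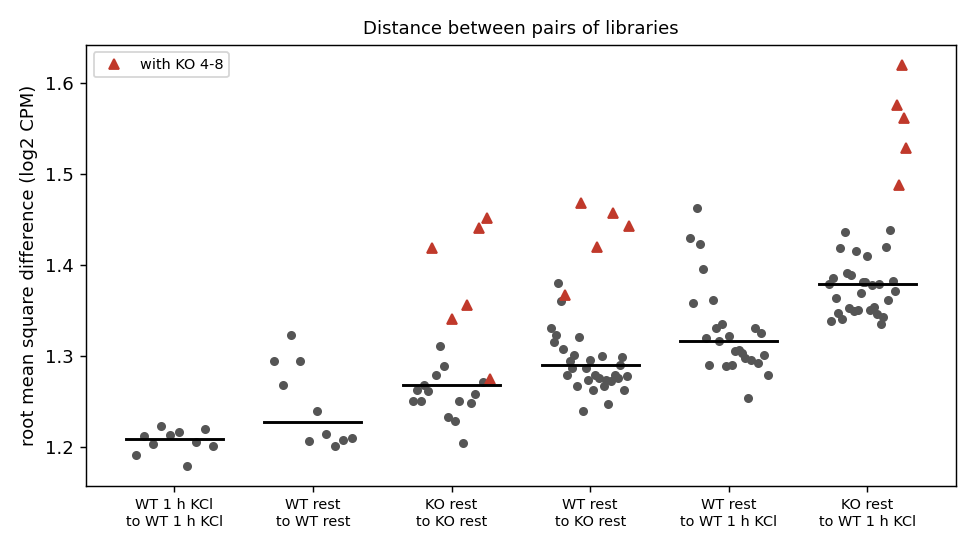
Distance between pairs of libraries, as the root mean square difference of log2 CPM, for pairs within and between the groups; horizontal lines are medians and triangles are pairs with KO library 4-8. The median rises from 1.21 among KCl libraries to 1.38 for KO to KCl, and the pairs with library 4-8 lie highest in the last column.

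Long transcripts were more often lower in KO than after KCl, a pattern examined after the data were seen. Of 1199 transcripts over 8000 bases, 223 (18.6%) were lower and 81 (6.76%) higher in KO (edgeR), with a median log2 fold change of -0.11. Of 1095 transcripts of up to 500 bases, 40 (3.65%) were lower and 75 (6.85%) higher, with a median of 0.04. The share lower in KO was 4.52%, 5.10%, 6.77% and 10.1% in the classes between them, in order of length. Longer transcripts were also more abundant by count, with a median of 5.42 log2 CPM over 8000 bases and 1.81 up to 500. Among the 8288 transcripts with the highest level, 15.4% were lower and 9.53% higher in KO. Of these, 24.5% of 768 over 8000 bases and 10.2% of 1023 between 1001 and 2000 bases were lower in KO. In the same 2 classes 7.81% and 11.9% were higher.

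The reference comparisons called fewer transcripts of any length, with 1.63% of all tested lower and 1.30% higher for KO against rest. Over 8000 bases, 60 of 1182 transcripts (5.08%) were lower and 36 (3.05%) higher for KO against rest, and 36 of 1167 (3.08%) were higher and 13 (1.11%) lower for KCl against rest. The median log2 fold change of this class was 0.00 for KO against rest and 0.09 for KCl against rest. Transcripts over 8000 bases took 12.5% to 13.4% of all counts in KO libraries, 13.4% to 14.2% after KCl and 13.1% to 13.7% in WT at rest. The fragment length behind the effective lengths was 200.0 to 220.4 bases in KO and 191.2 to 202.5 bases after KCl. With an offset for effective length 19.2% of transcripts over 8000 bases were lower in KO, and without a filter on low counts 11.5%. The part of RNA quality in the result was not tested.

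**Figure D5:**
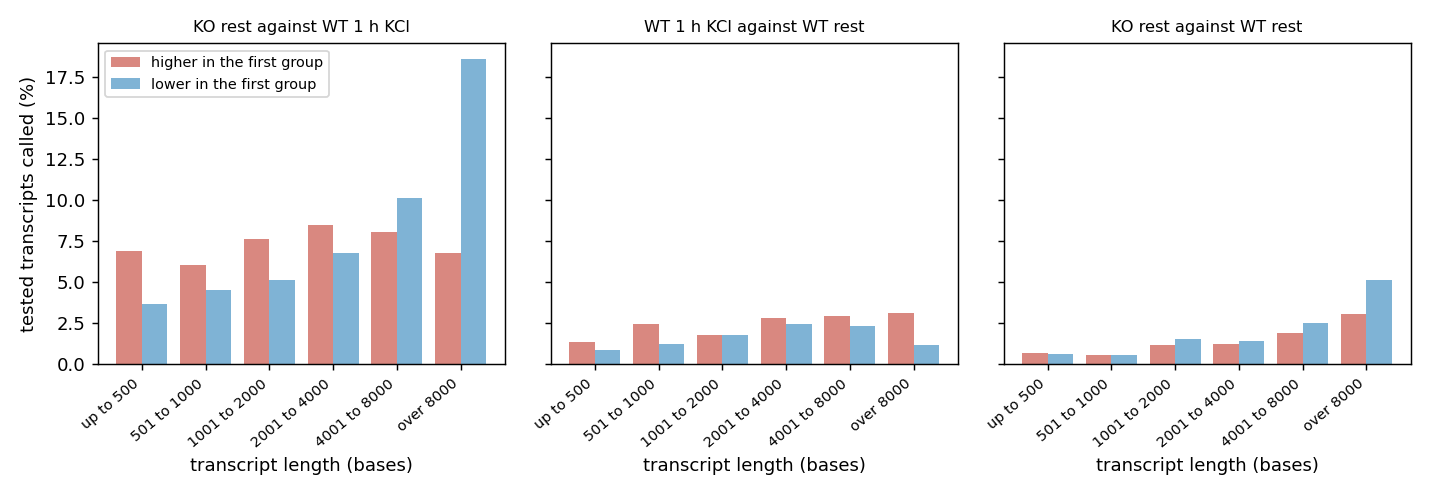
Share of tested transcripts called higher or lower in the first group named, by transcript length, for KO against 1 h KCl and for both reference comparisons; bars start at 0. The share lower in KO than after KCl reaches 18.6% over 8000 bases, against 3.65% up to 500 bases.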

How the data were processed

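Total RNA was sequenced after a strand-specific library kit, per the labels' protocols. Each deposited table holds, per the file headers, the length, effective length, estimated count and TPM of every transcript. The submitters' processing notes name kallisto 0.44.0, Trim Galore and DESeq2 among the tools and the builds mm9 and mm10, without roles. The deposited estimated counts were rounded to whole numbers; the authors' TPM values were only summed or quoted. Transcripts passing filterByExpr by group were compared in edgeR 4.0.16, run under R 4.3.3 (TMM scaling, robust quasi-likelihood F-test, Benjamini-Hochberg over all tested), with only the groups compared in each fit. An SE is the absolute log2 fold change divided by the root of its F value. Log2 CPM used a prior count of 2. Named transcripts are the 2 per direction with the smallest p among those at least 2-fold different, whose groups did not overlap and whose mean reached 1 CPM. Tests per gene were not run, since the identifiers gave no gene. Where nothing in the labels says what a replicate is, p-values measure the spread between these libraries.

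The comparisons and lists were chosen with earlier results of these data known. Alternatives were DESeq2 1.42.0, other scalings and filters, other sets of libraries in the fit, an effective length offset, covariates, other list limits and leaving out each library. The fit was tested on simulated data. The WT groups share 5 culture codes, and the series states 5 WT replicates, so equal codes were taken to be 1 replicate; same-code deviations from the group means correlated by 0.00124 to 0.113 between rest and 1 h of KCl and by 0.0226 to 0.103 between the 6 h and 7 h groups. KO and WT share 0 codes, so the main comparison has no pairs. No 2 libraries of a group held identical values. ATAC-seq files were not used here.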

Additional observations from a re-analysis of the deposited data

Results flagged for a closer look

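Several measures were each checked in each group of 4 to 10 libraries, which made 51 combinations of a measure and a group. In 5 of them a library had a gap to its nearest neighbour that was large for the range of its group. Chance flags about 1 in 20 independent sets of values. The same libraries recur across these measures, so the combinations are not independent. KO library 1-1 had an early-repressed score of -0.599, where the next lowest KO library was at -0.358. The 1 h KCl library 4-3 had a late-induced score of 1.375, above the next at 1.263. KO library 4-8 had a mean distance to the 1 h KCl libraries of 1.555, where the next was 1.395, and WT rest library 3-4 one of 1.414, where the next was 1.324. WT rest library 3-4 also lay at -52.9 on the first component, beside -6.76 for its nearest neighbour.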

How the results depend on the processing

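The 6 lists kept the sign of their median fold change and level score, and the 4 named transcripts their call, in every setting run. Without a filter on low counts 1593 transcripts were higher in KO than after 1 h of KCl and 10.3% of the late-repressed list was. Among codes starting with 3 alone 8 were higher and 24 lower, and the early-repressed median was 1.67; with codes starting with 4 alone 36 were higher and 176 lower. Fewer libraries were in these fits. Leaving out 1 library gave 1764 to 2467 higher and 1724 to 2415 lower, least without 1 h KCl library 4-2. With no fold limit the early-induced median was -1.13 and the early-repressed one 1.25, with a 4-fold limit -2.56 and 2.46. Lists defined with a replicate block gave -1.755, 1.63 and, for late-repressed, 0.0201. A prior count of 0.5 gave score differences of -2.04 and 1.67 for the early lists. Within 1.5-fold (0.58 on the log2 scale) lay 6849 of the 33150 intervals between KO and 1 h KCl. Distances over transcripts of at least 10 CPM were 0.962, 0.872 and 0.891.

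In the reference comparisons, DESeq2 called 1443 higher and 1280 lower for 1 h of KCl, and 967 and 1025 for KO. With the culture code as a replicate block, 436 rose and 220 fell at 1 h of KCl and 610 and 202 at 6 h; the block applied to no other comparison. Leaving out 1 library gave 215 to 468 higher and 218 to 556 lower for KO against rest, 571 to 775 and 443 to 511 for 1 h of KCl, and 1663 to 2253 and 1335 to 1791 for 6 h. The counts for KO against rest fell by over 1.5 times without WT library 3-4, 3-7, 4-2 or 4-4 or KO library 3-2 or 4-7, and the lower count also without WT 4-3 or KO 3-3. At 6 h they did so without 6 h KCl library 3-7 or 4-2, and the lower count without 7 h library 3-4. The cause was not tested. Tests per gene were not run, since the identifiers gave no genes. What depth limits was not tested by thinning counts. The median SE was 0.280, and the 95% interval lay within 2-fold in 49.5% of the 28204 transcripts not called.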

Other observations

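The balance of calls between KO at rest and WT after 1 h of KCl changed with the level of the transcript. In the 8288 tested transcripts with the lowest level, up to 1.55 log2 CPM, 521 were higher and 212 lower in KO (edgeR). In the 8288 with the highest level, from 4.375 log2 CPM up, 790 were higher and 1278 lower, 9.53% and 15.4% of 8288.

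The named transcripts were also measured at the later time. ENSMUST00000165033.1 stood at 16.0, 18.1 and 15.5 CPM in the 3 libraries with 6 h of KCl, and the 4 with 7 h of blockers alone had a mean of 5.36 ± 0.943 CPM (SD, n = 4). ENSMUST00000056129.7 had a mean of 67.4 ± 30.7 CPM after 6 h of KCl (SD, n = 3), with libraries at 85.2, 85.0 and 31.9 CPM. ENSMUST00000203043.1 had a mean of 81.3 ± 6.50 CPM with 7 h of blockers alone (SD, n = 4), where 6 h of KCl gave 30.1 ± 4.12 CPM (SD, n = 3). The 6 h and 7 h libraries are shallower than the others, and levels across the experiments were not tested.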
